A study of Rattus norvegicus with 32 samples.

Results

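Apolipoproteins are the proteins that the liver loads onto lipid particles for secretion into blood. The transcripts of 10 of them were followed here through the livers of 32 rats: Apoa1, Apoa2, Apoa4, Apoa5, Apob, Apoc3, Apoe, Apof, Apoh and Apom. They were taken by symbol from the table of read counts, where they are 10 of 17327 genes. All 10 had enough reads to be among the 11002 genes tested. The animals were Sprague Dawley rats of a commercial breeder, wild type (WT, Cbg+/+) or lacking corticosteroid-binding globulin (KO, Cbg-/-) after ablation of Serpina6 with CRISPR/Cas9. Corticosteroid-binding globulin is the liver-derived plasma protein that carries corticosterone, the main glucocorticoid of the rat. Females and males of each genotype were studied at 30 and at 60 days of age under basal conditions, with 4 rats in each of the 8 groups and no other allele or agent named. No driver restricting the ablation to liver is named, and how many founder lines the KO rats descend from is not stated in the labels. Poly(A) RNA of whole liver was sequenced with a stranded kit. Whole-liver RNA cannot tell fewer cells of a type apart from less RNA per cell.

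An apolipoprotein wraps the surface of a lipid droplet, keeps it soluble in plasma and addresses it to enzymes and receptors. Apob is the structural protein of very-low-density lipoprotein and stays with its particle for life, whereas the smaller proteins move between particles. Apoa1 and Apoa2 are the main proteins of high-density lipoprotein, Apoa4 and Apoa5 act on triglyceride-rich particles, Apoc3 slows their breakdown, and Apoe is the ligand for their uptake. Apof is also known as lipid transfer inhibitor protein, Apoh binds anionic phospholipids, and Apom carries sphingosine 1-phosphate on high-density lipoprotein.

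Libraries held 12951969 to 21954929 reads on genes. Serpina6 checked the genotype labels: it lay between 25.5 and 131 CPM (read counts relative to library size, with sizes scaled by the trimmed mean of M-values, TMM) in the 16 KO livers and between 421 and 1358 CPM in the 16 WT livers. The 8 hepatocyte markers, albumin among them, summed to 210436 to 297890 CPM in all libraries. One library, replicate 1 of the 60-day KO females, carried 2038 CPM of 12 photoreceptor genes, which summed to at most 10.9 CPM in each of the other 31 libraries. Called results that use the 60-day KO females are also given without it where a member or a named gene is described. Changes are log2 fold changes ± SE from edgeR's quasi-likelihood test, and levels are CPM as mean ± SD (n = 4). The SE was derived as the absolute log2 fold change over the square root of the test's F statistic. The 95% confidence intervals use that SE with a t quantile. A gene was called at a Benjamini-Hochberg adjusted p below 0.05 over the 11002 genes. CPM depends on transcript length, so levels are compared between groups and not between genes.

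Apoa4 was the one gene of the 10 called between KO and WT livers, and it was called at 60 days. Its level was 3.02 times lower in KO females and 2.75 times lower in KO males, and no KO library reached the level of a WT library of the same sex. At 30 days 0 of 10 genes were called in either sex, where 0.3% of all genes were called in females and 0.0545% in males. At 60 days 1 of 10 was called in females, against 6.77% of all genes, and 1 of 10 in males, against 0.209%. The female call was kept in every alternative fit, whereas the male call was kept in 1 of 8 fits without 1 library and in 3 of 6 other fits. Genes whose 4 KO livers all lay on one side of the 4 WT livers were 1 of 10 in 30-day females (7.62% of all genes tested), 3 in 30-day males (6.44%), 1 in 60-day females (8.43%) and 3 in 60-day males (4.89%).

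Apoa4 encodes apolipoprotein A-IV, which intestine and, in rodents, liver secrete on triglyceride-rich and high-density particles. At 60 days the 4 KO females had 239.5, 178, 80.7 and 99.6 CPM of Apoa4. The 4 WT females of that age had 394, 388, 391 and 634 CPM. The highest KO female thus lay below the lowest WT female, and the WT group was close together except for its replicate 4. The KO mean was 3.02 times lower, a log2 fold change of -1.60 ± 0.30 (adjusted p = 0.00216) with a 95% confidence interval of -2.22 to -0.97. The call was kept in all 8 fits that left out 1 library, the photoreceptor-bearing one included, with log2 fold changes from -1.92 to -1.39. It was also kept in all 6 fits with another tool, scaling, filter or covariate.

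In 60-day males the KO livers had 479.7, 309, 297 and 349.7 CPM and the WT livers 973, 982, 606 and 1389.9 CPM. The groups did not overlap, and replicate 3 was the lowest of the WT males. The log2 fold change was -1.46 ± 0.30 (adjusted p = 0.0320), a level 2.75 times lower, with a 95% confidence interval of -2.08 to -0.84. The size stayed between -1.63 and -1.25 when 1 of the 8 libraries was left out, but the adjusted p ran from 0.0372 to 0.142 and was below 0.05 in 1 of these 8 fits, the one without WT replicate 3. The call was also lost with no filter on low counts (0.0532), on the authors' log2 values with limma (0.0611) and in a fit to the 16 libraries of 60 days (0.243). The sex-by-genotype difference at 60 days was 0.14 ± 0.42 (adjusted p = 0.955), with a 95% confidence interval of -0.72 to 0.99.

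At 30 days the Apoa4 levels of the genotypes overlapped. Females had 219.7, 205, 316 and 189.7 CPM in KO and 316, 176, 205 and 353 CPM in WT. Males had 253, 287, 276 and 384 CPM in KO and 354, 319, 324 and 486 CPM in WT. The differences were -0.17 ± 0.29 (adjusted p = 0.889) in females and -0.31 ± 0.29 (adjusted p = 0.964) in males. The change of the genotype difference from 30 to 60 days was -1.42 ± 0.42 (adjusted p = 0.0612) in females and -1.15 ± 0.42 (adjusted p = 0.784) in males, and neither passed the threshold. In females it passed with DESeq2 (adjusted p = 0.0312), on the authors' log2 values with limma (0.0384), with a clock score as a covariate (0.0253) and without 30-day WT replicate 4 (0.0373), 60-day WT replicate 1 (0.0485) or 60-day KO replicate 1 (0.0255).

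**Figure D1:**
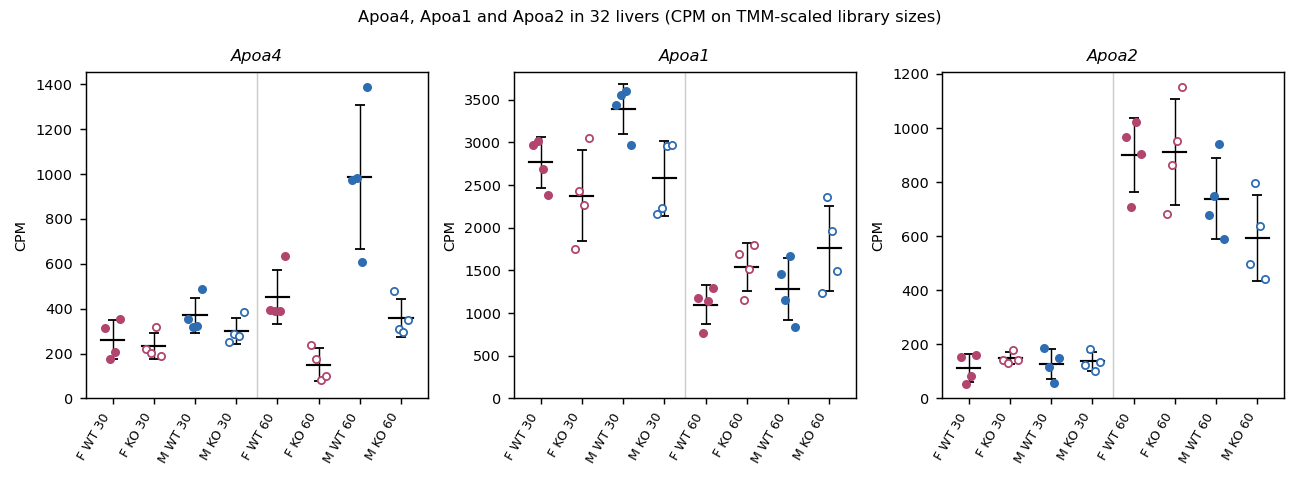
Apoa4, Apoa1 and Apoa2 in CPM (vertical axes, linear from 0) by group (F female, M male, then genotype and age in days). Each point is 1 liver, filled for WT and open for KO, and bars show the mean ± SD of 4. Apoa4 of 60-day KO livers lies below that of all WT livers of the same sex and age, Apoa1 is lower and Apoa2 higher at 60 than at 30 days.

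The order of the 8 Apoa4 means ran from 60-day KO females (149 ± 73.3 CPM) through the 30-day groups and 60-day KO males to 60-day WT females (452 ± 121 CPM) and 60-day WT males (988 ± 320.1 CPM), a 6.61-fold range. Each of the 7 pairs of neighbours in that order overlapped in their single livers. In WT livers Apoa4 rose from 30 to 60 days, by 0.78 ± 0.30 (adjusted p = 0.0430) in females and 1.41 ± 0.30 (adjusted p = 6.83e-04) in males. In KO livers the corresponding values were -0.64 ± 0.30 (adjusted p = 0.129) and 0.26 ± 0.29 (adjusted p = 0.559), not called. The rise in WT females was lost with upper-quartile scaling (adjusted p = 0.0661), with no filter on low counts (0.0597), on the authors' log2 values (0.0749), and without 30-day replicate 2 (adjusted p = 0.140) or 3 (0.116) or without 60-day replicate 4 (0.165), and without the photoreceptor-bearing library the KO females had a called difference of -0.96 ± 0.30 (adjusted p = 0.0246), as they did on the authors' log2 values (-0.90 ± 0.30 (adjusted p = 0.0237)).

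Markers of other tissues were read beside Apoa4, since intestine makes it too. Of 8 small intestine markers, Si and Fabp6 had 0 reads in all 32 libraries and Alpi at most 0.0622 CPM, while the summed list reached 57.0 to 162 CPM in 60-day WT males and 60.5 to 143 CPM in 60-day KO males, against 4.57 to 8.96 CPM in 60-day females. Nearly all of that sum was Cdh17, a cadherin, with a mean of 111 CPM in WT and 98.3 CPM in KO males. Exocrine pancreas markers summed to 35.1 to 220 CPM in 60-day WT females and 6.21 to 48.5 CPM in 60-day KO females; their part in the Apoa4 difference was not tested. A clock score averaged -2.01 in 60-day WT females and -0.84 in KO females. It is the mean log2 CPM of listed clock output genes, such as Per1 and Dbp, minus that of listed opposite-arm genes, such as Arntl and Clock. With that score as a covariate the Apoa4 difference of 60-day females was still called, while the genes called in all went from 745 to 141. The score was computed from these same libraries and differed with genotype, so that fit cannot separate them. The part of the clock in the Apoa4 difference was not tested.

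The 250 bases before the RefSeq start of Apoa4 and of Apom are shown because, of the members the promoter table holds, these were called for genotype (Apoa4) or sex (both). Both are on the plus strand of assembly GRCr8, Apoa4 at chr8:55435529-55435778 and Apom at chr20:3695368-3695617. Capitals mark GGTCA, the core of the half-site that many nuclear receptors bind.
Apoa4: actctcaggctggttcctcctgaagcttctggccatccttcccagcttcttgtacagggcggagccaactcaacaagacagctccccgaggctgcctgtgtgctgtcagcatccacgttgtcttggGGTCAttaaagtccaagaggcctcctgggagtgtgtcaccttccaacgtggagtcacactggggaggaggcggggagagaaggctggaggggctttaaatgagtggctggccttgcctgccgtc
Apom: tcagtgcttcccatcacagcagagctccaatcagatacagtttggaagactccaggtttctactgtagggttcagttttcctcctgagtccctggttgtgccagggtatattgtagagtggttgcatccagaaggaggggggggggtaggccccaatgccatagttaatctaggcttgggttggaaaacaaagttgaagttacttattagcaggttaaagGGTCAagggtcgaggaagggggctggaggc
GGTCA, searched on both strands, began 124 bases before the start in Apoa4 and 30 bases before it in Apom. It occurs in 35.4% of 33469 RefSeq promoters of that length and in 3 of the 6 members the table holds, Apof being the third. AGAACA, the glucocorticoid receptor half-site, was in 17.5% of promoters and in 0 of the 6. CACGTG, the E-box of clock factors, was in 5.59% of promoters and in 2 of the 6, Apoa5 and Apof. These are matches of letters and not binding sites. In the RefSeq gene order Apoa1, Apoc3, Apoa4 and Apoa5 follow each other on chromosome 8. Their genotype differences in 60-day females were 0.49 ± 0.20, -0.01 ± 0.10, -1.60 ± 0.30 and -0.27 ± 0.14 in that order, with Apoa4 alone called.

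The proteins of high-density lipoprotein were next. Apoa1, its main protein and the activator of lecithin-cholesterol acyltransferase, had 1687, 1158, 1516 and 1800.0 CPM in 60-day KO females and 1182, 769.6, 1146 and 1293 CPM in WT females. The corresponding males had 1233, 2355, 1959 and 1493 CPM in KO and 1456, 1158, 1666 and 836 CPM in WT. The KO livers were on average higher but overlapped the WT livers in both sexes, and the differences of 0.49 ± 0.20 (adjusted p = 0.160) and 0.46 ± 0.20 (adjusted p = 0.399) were not called. At 30 days the KO means were the lower ones, -0.22 ± 0.20 (adjusted p = 0.768) in females and -0.39 ± 0.20 (adjusted p = 0.840) in males, again not called. The change of the genotype difference with age was 0.71 ± 0.29 (adjusted p = 0.183) in females and 0.86 ± 0.29 (adjusted p = 0.676) in males. Apoa2 differed by 0.41 ± 0.30, 0.10 ± 0.30, 0.02 ± 0.30 and -0.32 ± 0.30 between KO and WT in 30-day females, 30-day males, 60-day females and 60-day males, none of them called.

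Apom, the sphingosine 1-phosphate carrier, had 231, 246, 228 and 198 CPM in 60-day KO males and 256, 273, 394 and 292 CPM in WT males. All 4 KO livers lay below all 4 WT livers, yet the difference of -0.43 ± 0.11 (adjusted p = 0.0963) missed the threshold of edgeR, while DESeq2 called it (adjusted p = 0.0193). In 60-day females the levels were 374, 409.9, 507 and 462 CPM in KO and 436, 356, 399 and 425 CPM in WT, overlapping, with a difference of 0.12 ± 0.11 (adjusted p = 0.578). The sex-by-genotype difference was -0.54 ± 0.15 (adjusted p = 0.134). DESeq2 called that difference too (adjusted p = 0.0488).

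Of the remaining 6 genes, those of triglyceride-rich particles among them, 0 were called for genotype. The Apob differences of KO from WT lay between -0.19 and 0.01, and its 30-day KO females, at 5504, 5257, 5283 and 5119 CPM, lay below the WT females at 5647, 6003, 5923 and 6260.5 CPM without a call (-0.17 ± 0.12 (adjusted p = 0.640)). The groups overlapped on raw library totals. Apoc3 of 60-day KO males, 4205, 4248, 3459 and 4166 CPM, lay below that of WT males, 4421, 4599, 5374 and 4759 CPM, by -0.25 ± 0.10 (adjusted p = 0.342). Apoa5, which aids lipoprotein lipase, differed by -0.36 ± 0.14 (adjusted p = 0.674) in 30-day males and by smaller amounts elsewhere. In 30-day males Apoe (-0.24 ± 0.10 (adjusted p = 0.723)), Apoh (-0.19 ± 0.07 (adjusted p = 0.631)) and Apom (-0.25 ± 0.11 (adjusted p = 0.741)) had all 4 KO livers below all 4 WT livers, which for Apom did not hold on raw library totals. None of these differences was called. Apof had the widest SE, 0.40, and its differences of 0.34 ± 0.40, 0.26 ± 0.40, 0.41 ± 0.40 and -0.08 ± 0.40 have intervals that reach from -0.90 to 1.24. A missed threshold does not show that the genotypes were alike: for Apoe in 60-day females the interval of the difference was -0.19 to 0.22, for Apof -0.41 to 1.24.

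**Figure D2:**
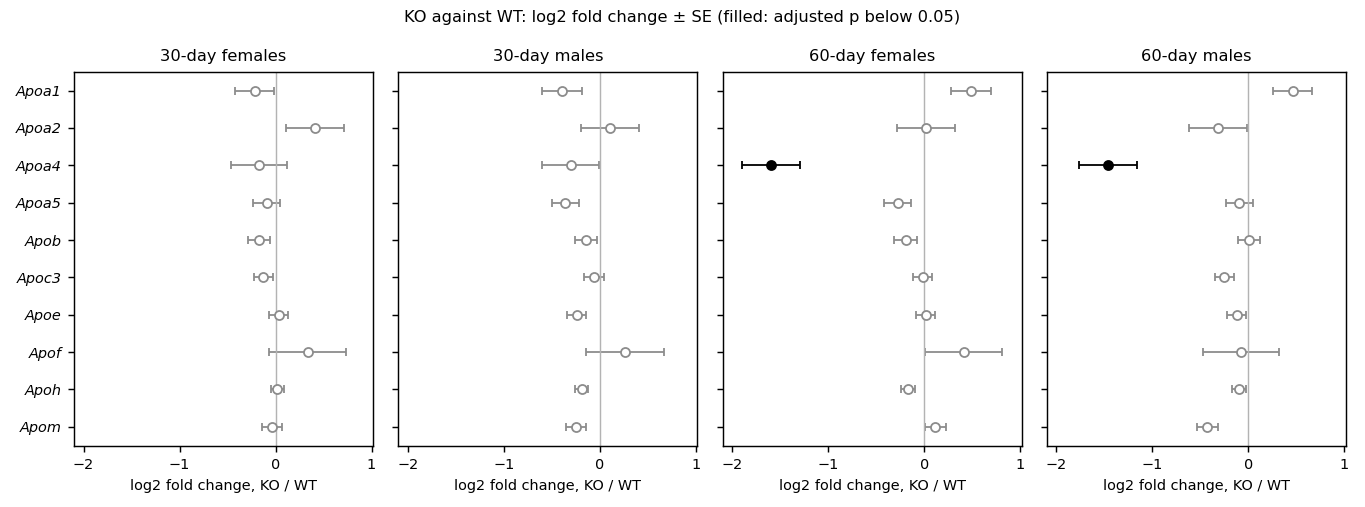
Log2 fold changes of KO against WT (horizontal axis) with SE for the 10 genes in each sex and age, 4 livers against 4. Filled black points have an adjusted p below 0.05. Apoa4 at 60 days, -1.60 in females and -1.46 in males, is the one gene called.

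The median of the 10 genotype differences was -0.06 in 30-day females, -0.22 in 30-day males, 0.00 in 60-day females and -0.11 in 60-day males. Over all genes tested it was 0.01, 0.00, 0.01 and 0.00 in that order.

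Sex differences were called at 60 days and not at 30. At 60 days 3 of 10 genes were called in WT livers, where 26.4% of all genes were called, and 3 of 10 in KO livers, against 18.5%; the members were thus not far from the background. They were the same 3 genes in both genotypes: Apoa4 and Apoc3 were higher in males and Apom was lower. At 30 days 0 of 10 were called in either genotype, against 2.07% in WT and 2.24% in KO.

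Apoa4 was higher in 60-day males by 1.13 ± 0.30 (adjusted p = 0.00551) in WT and 1.27 ± 0.30 (adjusted p = 0.00309) in KO. The WT sexes touched, with the lowest male at 606 CPM and the highest female at 634 CPM, and the KO sexes did not overlap. Apoc3, the inhibitor of triglyceride-rich particle breakdown, was higher in WT males by 0.54 ± 0.10 (adjusted p = 1.42e-04). The WT females had 3808, 2880.2, 3527 and 2977 CPM, all below the 4 males given above. In KO livers the Apoc3 difference was 0.30 ± 0.10 (adjusted p = 0.0347), with overlapping sexes. Of 8 fits without 1 library, those without KO female replicate 2 or KO male replicate 3 kept that call, and over all 8 the adjusted p ran from 0.0109 to 0.118. Apom was lower in males, by a log2 fold change of -0.41 ± 0.11 (adjusted p = 0.00391) in WT and -0.95 ± 0.11 (adjusted p = 7.95e-08) in KO. KO males and KO females were fully separate in Apom, whereas replicate 3 of the WT males, at 393.5 CPM, stood among the WT females. Without the photoreceptor-bearing library the KO differences were 1.59 ± 0.31 (adjusted p = 5.47e-04) for Apoa4, -1.02 ± 0.11 (5.97e-08) for Apom and 0.29 ± 0.11 (0.0781, not called) for Apoc3. The Apoc3 call in KO was lost in the fit to the 16 libraries of 60 days (0.0665) as well. In that fit Apoa2 was called as lower in KO males (-0.61 ± 0.19 (adjusted p = 0.0450)). In WT, Apoa5 was called as lower in males without male replicate 3 (-0.42 ± 0.14 (adjusted p = 0.0303)) and Apob without male replicate 4 (-0.33 ± 0.12 (adjusted p = 0.0402)). The sexes did not overlap for 1 of 10 genes in WT (22.7% of all genes) and 3 of 10 in KO (18.1%).

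Age was the comparison with the most members called. From 30 to 60 days 5 of 10 were called in WT females (33.1% of all genes), 5 in KO females (22.7%), 6 in WT males (31.5%) and 7 in KO males (28.4%). Apoa2, Apob and Apoe rose and Apoa1 fell in all 4 combinations of sex and genotype. Samples of the 2 ages carry titles of another form, so age cannot be told apart from whatever else went with it. Livers of the 2 ages did not overlap for 5 of 10 genes in WT females (29.4% of all genes), 4 in KO females (23.6%), 7 in WT males (29.1%) and 6 in KO males (31.4%). On raw library totals the counts were 6, 5, 4 and 5 in that order, and the share of all genes was not computed. Apob, Apoe and Apoh then overlapped in WT males. In KO males Apof and Apoh then overlapped, while Apoa1 no longer did. Markers of other cell types moved with age. The 8 stellate cell markers, of which Col1a2 had 0 reads, summed to 862 to 1461 CPM in the 30-day livers and 274 to 613 CPM in the 60-day livers, most of it Col3a1. Of 7 tested, 7 fell in WT females, 3 in KO females, 6 in WT males and 4 in KO males. The 4 cholangiocyte markers in the table summed to 26.9 to 37.7 CPM at 30 days and 14.2 to 23.6 CPM at 60 days, and 2, 2, 2 and 3 of them fell in the same order. Their part in the age differences of the members was not tested.

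Apoa2, the second protein of high-density lipoprotein, rose the most. In WT females it went from 152, 53.5, 82.3 and 160.5 CPM at 30 days to 968, 707, 1023 and 905 CPM at 60 days. Every 60-day liver exceeded every 30-day liver in all 4 combinations. The changes were 3.01 ± 0.32 in WT females, 2.62 ± 0.32 in KO females, 2.54 ± 0.32 in WT males and 2.12 ± 0.31 in KO males, that is 4.34- to 8.04-fold, with the largest adjusted p at 9.69e-06. In the order of the 8 means, neighbouring groups overlapped except at the step from the 30-day to the 60-day groups.

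Apob, the backbone of very-low-density lipoprotein, rose by 0.81 ± 0.12 in WT females, 0.79 ± 0.12 in KO females, 0.57 ± 0.12 in WT males and 0.72 ± 0.12 in KO males. In WT females the levels were 11436, 10685, 10361 and 9343 CPM at 60 days against 5647, 6003, 5923 and 6260.5 CPM at 30 days. In every combination the lowest 60-day liver lay above the highest 30-day liver, though on raw library totals the ages overlapped in WT males. All Apob calls were kept in each fit without 1 library.

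Apoa1 moved the other way. WT females fell from 2971, 3018, 2689 and 2378 CPM at 30 days, and WT males from 3442, 3551, 3599 and 2963 CPM, to the 60-day levels given above, with no overlap of the ages. The falls were 1.33 ± 0.21 (adjusted p = 1.13e-05) in WT females and 1.41 ± 0.21 (adjusted p = 6.53e-06) in WT males. In KO livers they were 0.62 ± 0.20 (adjusted p = 0.0265) in females and 0.55 ± 0.20 (adjusted p = 0.0434) in males, where the ages overlapped and the calls held in 4 of 8 fits without 1 library each (adjusted p up to 0.119 and 0.159). On raw library totals the ages did not overlap in KO livers of either sex. The KO calls were lost without 30-day replicate 2 or 4 or 60-day replicate 2 or 3 in females, and without 30-day replicate 3 or 4 or 60-day replicate 1 or 4 in males. The KO male call was also lost with no filter on low counts (0.0633).

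Apoe, the ligand of the low-density lipoprotein receptor family, rose by 0.34 ± 0.10 (adjusted p = 0.00786) in WT females, 0.33 ± 0.10 (adjusted p = 0.0164) in KO females, 0.31 ± 0.10 (adjusted p = 0.0163) in WT males and 0.43 ± 0.10 (adjusted p = 0.00143) in KO males. Its calls were kept in all 8 fits without 1 library in WT females and KO males. In KO females the call was lost without 30-day replicate 1 (0.0634) or 60-day replicate 3 (0.0635) or 4 (0.0891), and in WT males without 60-day replicate 3 (0.104). On the authors' log2 values, which carry no scaling between libraries, the calls of KO females (0.154) and WT males (0.202) were lost too. Apoc3 rose in males, by 0.51 ± 0.10 (adjusted p = 2.41e-04) in WT and 0.32 ± 0.10 (adjusted p = 0.0168) in KO, and was -0.19 ± 0.10 (adjusted p = 0.161) and -0.07 ± 0.10 (adjusted p = 0.664) in WT and KO females. Without 30-day replicate 3 the KO male call was lost (adjusted p = 0.0710). Apom rose in KO females by 0.38 ± 0.11 (adjusted p = 0.00835) and fell in KO males by 0.43 ± 0.11 (adjusted p = 0.00254), with no overlap of the ages in either. The ages of KO females overlapped in Apom on raw library totals. The WT values were 0.23 ± 0.11 (adjusted p = 0.0916) in females, called without 30-day replicate 4 (0.30 ± 0.11 (adjusted p = 0.0414)), and -0.25 ± 0.11 (adjusted p = 0.0659) in males, called without 60-day replicate 3 (-0.40 ± 0.10 (adjusted p = 0.00197)) and with upper-quartile scaling (-0.31 ± 0.10 (adjusted p = 0.0222)). Apoh rose in KO males by 0.24 ± 0.07 (adjusted p = 0.0104). On the authors' log2 values the calls of Apoc3 (0.236) and Apoh (0.578) in KO males and of Apom in KO females (0.0899) were lost, while Apoc3 in WT (0.00525) and KO (0.0430) females and Apoh in KO females (0.0259) came to be called as lower and Apom in WT males (0.00103) likewise. Apoa5 (-0.03 ± 0.14, -0.21 ± 0.14, -0.26 ± 0.14 and 0.01 ± 0.14) and Apof were called in 0 of the 4 age comparisons. Apoa5 was called as lower on the authors' log2 values in KO females (-0.38 ± 0.14 (adjusted p = 0.0324)) and WT males (-0.42 ± 0.14 (adjusted p = 0.0153)), and in WT males without 60-day replicate 3 (-0.40 ± 0.14 (adjusted p = 0.0367)). Apof in WT females went from 0.69 ± 0.40 (adjusted p = 0.195) to 1.33 ± 0.38 (adjusted p = 0.00947) without 30-day replicate 3. Without the photoreceptor-bearing library the KO females kept their calls, with 2.73 ± 0.33 for Apoa2, 0.73 ± 0.12 for Apob, -0.67 ± 0.23 for Apoa1, 0.41 ± 0.10 for Apoe and 0.45 ± 0.11 for Apom (largest adjusted p 0.0364).

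**Figure D3:**
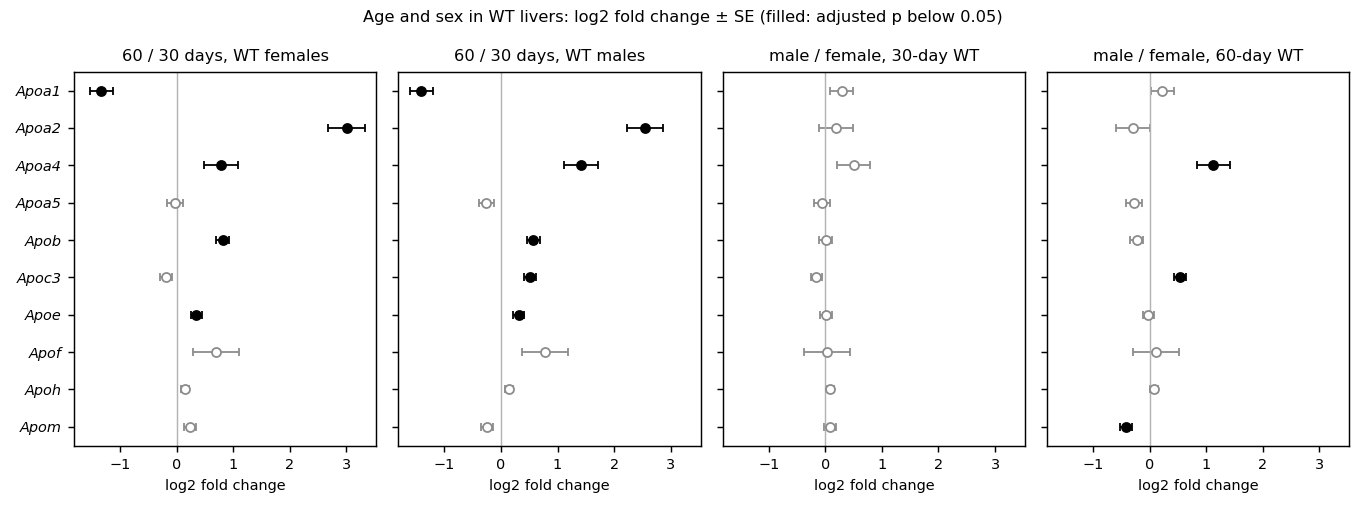
Log2 fold changes with SE of the 10 genes for 60 against 30 days in WT females and WT males, and for males against females in WT livers of 30 and 60 days. Filled black points have an adjusted p below 0.05. Apoa2 stands at 3.01 and 2.54 for age and Apoa1 at -1.33 and -1.41, and no gene is called for sex at 30 days.

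No member was called in the 4 tests of whether 1 difference depends on another factor. The background was 0% of genes for sex by genotype at 30 days, 0.136% at 60 days, 2.96% for age by genotype in females and 0.00909% in males. At an unadjusted p under 0.05 there were 1, 1, 2 and 2 of the 10 genes in that order, against 5.51%, 10.6%, 17.6% and 5.34% of all genes.

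**Figure D4:**
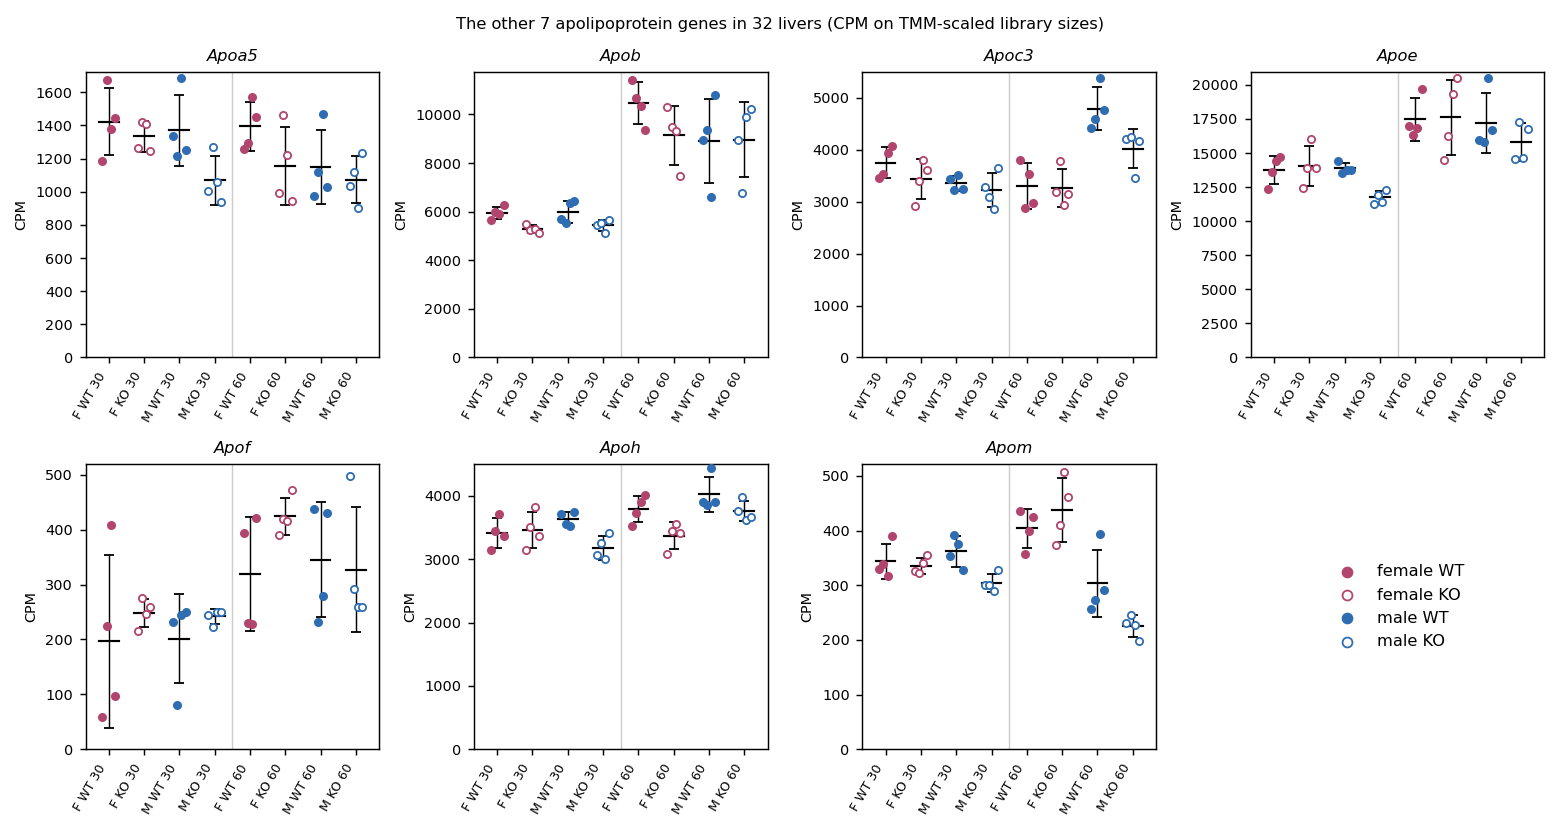
The other 7 genes in CPM (vertical axes, linear from 0) by group, drawn like the plot of Apoa4, with points for single livers and bars for the mean ± SD of 4. Apob is higher in every 60-day group than in every 30-day group, and Apom is lowest in 60-day KO males, 226 CPM.

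The 10 transcripts together took 2.98% to 3.93% of gene reads. The group mean was lowest in 30-day KO males (3.06 ± 0.0986%) and highest in 60-day WT females (3.78 ± 0.118%). Among themselves the genes varied in different ways. Of the 10, Apoa2 had the widest range of group means (8.14-fold), then Apoa4 (6.61-fold) and Apoa1 (3.09-fold), and Apoh the narrowest (1.26-fold). Over the 32 livers the 45 pairs of genes had a median Pearson r of 0.13, from -0.84 to 0.81, and 28 were positive. Apob and Apoa2 had r = 0.81 and Apob and Apoa1 r = -0.84, values that include the differences between groups. Within groups the same pairs stood at -0.38 and -0.59. With the mean of each group taken away the median was 0.14, and 27 pairs were positive. Apoe and Apoh then stood at 0.77, Apoe and Apom at 0.63, and Apob and Apoe at -0.56. All of these are descriptions over libraries that share depth and scaling.

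**Figure D5:**
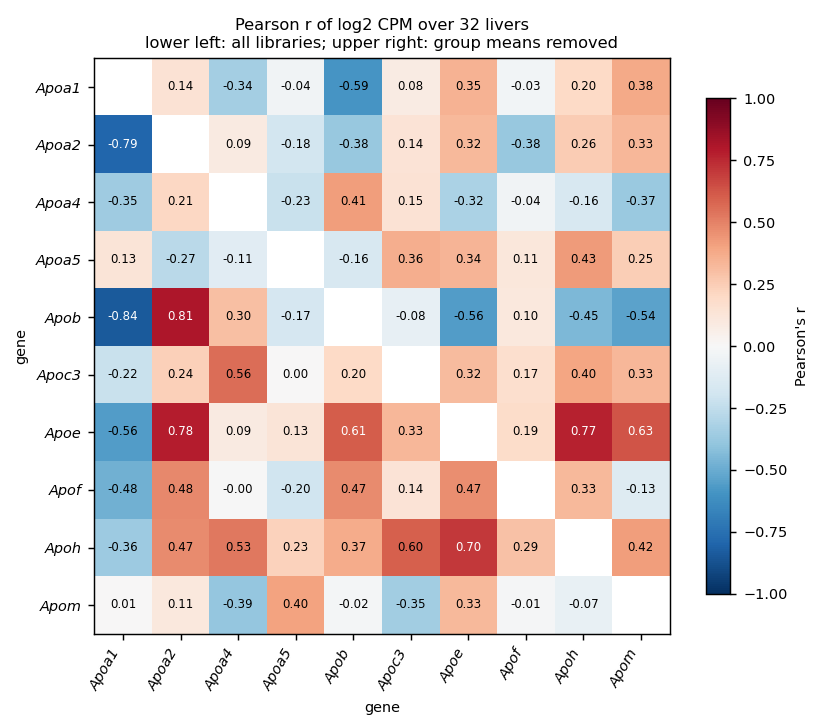
Pearson's r between the log2 CPM of each pair of genes over 32 livers, from -1 (blue) to 1 (red). The lower left gives all libraries and the upper right the same libraries with group means taken away. Apob and Apoa1 stand at -0.84 and -0.59, and Apoe and Apoh at 0.70 and 0.77.

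Of all genes tested, those whose log2 CPM followed a member best over the 32 livers were Adamdec1 for Apoa2 (r = 0.95), Cyp3a9 and B2m likewise (0.94 and 0.94), Taok1 for Apob (0.94) and Phyhd1 for Apoh (0.95). Apoe was followed by Fth1 (0.91), Apoa1 by Cyp17a1 (0.88), Apoc3 by Rarres2 (0.87) and Apoa4 by Gla (0.84) and by Saa4, another apolipoprotein (0.79). Apom and Apoa5 had 0.80 with Disp1 and Zkscan5, and Apof 0.69 with Lypla1. Group means were not taken away here, so genes that differ between the same groups, such as the ages, can stand high. Whether these genes follow the members within groups was not tested.

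The proteins that build, remodel and clear the particles were followed through lists, to be read against the 6.77% of all genes called in 60-day females. In 60-day KO females 0 of 13 tested other apolipoproteins rose and 1 fell, Saa4 (-1.07 ± 0.13), a serum amyloid A protein of high-density lipoprotein. Of 17 genes of particle assembly 1 rose and 3 fell. Sort1, a sorting receptor that binds apolipoprotein B, rose by 0.96 ± 0.19 (adjusted p = 0.00299). Tmem41b, a lipid scramblase of the endoplasmic reticulum, fell by 0.43 ± 0.10 (adjusted p = 0.00883), a call lost without WT replicate 4 (adjusted p 0.0573). The chaperone Hsp90b1 (-0.56 ± 0.15) lost its call without WT replicate 2 or 4 or KO replicate 1 (adjusted p up to 0.170). The carboxylesterase Ces1d (-1.36 ± 0.38) kept its call in 3 of 8 fits, those without WT replicate 1 or 3 or KO replicate 3 (up to 0.117 in the others). The loading factor Mttp (-0.05 ± 0.09 (adjusted p = 0.816)) and the editing enzyme Apobec1 (-0.73 ± 0.24 (adjusted p = 0.0592)) were not called. Of 9 plasma remodelling genes Lipc, hepatic lipase, rose by 0.33 ± 0.10 (adjusted p = 0.0366), a call lost without WT replicate 2 or 4 or KO replicate 2 or 3 (up to 0.143). Of 14 uptake genes the receptor Sorl1 (1.74 ± 0.23 (adjusted p = 2.08e-05)) and the proteoglycan Sdc1 (0.47 ± 0.12 (adjusted p = 0.0142)) rose, the latter not without WT replicate 3 or 4 (up to 0.0686). Without the photoreceptor-bearing library Hsp90b1 (-0.50 ± 0.16 (adjusted p = 0.0845)) and Ces1d (-1.15 ± 0.40 (adjusted p = 0.117)) were not called. Saa4 (-0.97 ± 0.14), Sort1 (0.93 ± 0.21), Tmem41b (-0.43 ± 0.11), Lipc (0.38 ± 0.10), Sorl1 (1.72 ± 0.24) and Sdc1 (0.50 ± 0.13) still were.

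Of 32 transcription factors of apolipoprotein genes, Srebf1, a driver of fatty acid synthesis, rose by 1.35 ± 0.21 (adjusted p = 2.12e-04) and Srebf2, a driver of cholesterol synthesis, fell by 0.39 ± 0.09 (adjusted p = 0.00914) in 60-day KO females. In that comparison 6.77% of all genes were called. Hnf4a (-0.20 ± 0.14 (adjusted p = 0.457)) and the glucocorticoid receptor Nr3c1 (-0.02 ± 0.12 (adjusted p = 0.955)) were not called there. In 60-day males Cebpb fell by 1.01 ± 0.17 (adjusted p = 0.00792), kept in 7 of 8 fits without 1 library and lost without KO replicate 1 (0.0614). No other gene of these 5 lists was called in 60-day males (0.209% of all genes) and none in 30-day males (0.0545%). In 30-day females (0.3% of all genes) Lpl (-1.26 ± 0.23 (adjusted p = 0.0209)) alone was, and kept its call without WT replicate 3 or 4 or KO replicate 3 but not in the other 5 fits (up to 0.0820). Of 15 genes tested from a list of neighbours of the apolipoprotein genes, Sidt2 was lower in 60-day KO females, -0.30 ± 0.07 (adjusted p = 0.00696), against 6.77% of all genes. Sidt2 is not among the genes directly flanking the chromosome 8 cluster, which are Sik3 and Pafah1b2 before Apoa1 and Zpr1 and Bud13 after Apoa5. Without the photoreceptor-bearing library Srebf1 (1.39 ± 0.22), Srebf2 (-0.34 ± 0.10, adjusted p = 0.0467) and Sidt2 (-0.28 ± 0.07) kept their calls.

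Between the sexes at 60 days 8 of 17 assembly genes were lower in WT males and 1 was higher, where 26.4% of all genes were called. Mttp, which loads lipid onto apolipoprotein B, was lower, -0.92 ± 0.09 (adjusted p = 3.05e-09), and so was Dgat2, a triglyceride synthase, -1.28 ± 0.15 (adjusted p = 1.09e-07). Apob itself differed by -0.23 ± 0.12 (adjusted p = 0.153). Apon, an apolipoprotein beside Apof on chromosome 7, was higher in WT males by 1.61 ± 0.13 (adjusted p = 1.86e-10), where Apof differed by 0.12 ± 0.40. Among uptake genes Cd36, a fatty acid receptor, was lower in males, -4.49 ± 0.36 (adjusted p = 4.92e-10), and Sorl1 was higher by 2.99 ± 0.22 (adjusted p = 2.75e-11). With age Lpl, lipoprotein lipase, fell in WT females by 1.77 ± 0.24 (adjusted p = 1.66e-06) and in WT males by 1.41 ± 0.25 (adjusted p = 6.48e-05). Lcat, the enzyme that Apoa1 activates, rose by 0.30 ± 0.08 (adjusted p = 0.00288) and 0.34 ± 0.08 (adjusted p = 9.74e-04) in the same order.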

How the data were processed

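RNA-seq read counts of 32 rat livers were analysed. Raw counts per gene were deposited by the authors for 17327 genes. Reads on no feature (18.05% to 21.18% of reads) and ambiguous reads (0.262% to 0.648%) were left out of library sizes. The authors also deposited log2 values of 11344 genes, which equalled log2 CPM recomputed here from the counts (0.5 added) to 5.0e-09 and had no scaling between libraries. STAR, Cufflinks, limma and Rnor_5.0 are named by the submitters' processing notes, without roles or versions.

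Groups followed the labels for sex, genotype and age. The main test was edgeR 4.0.16 (R 4.3.3) with filterByExpr at a minimum count of 10, library sizes scaled by TMM, and its quasi-likelihood test with robust dispersions on a model of 8 groups (24 residual degrees of freedom), tested on simulated data. Alternatives were DESeq2 1.42.0, limma 3.58.1 on the deposited log2 values, upper-quartile scaling, no filter, only the 16 libraries of 1 age, a clock score or the number in the 30-day titles as a covariate, and each library left out. Correlations used log2 CPM with a prior count of 2. Counts of all 48 replicate pairs differed beyond sampling noise (chi-square over its degrees of freedom was 10.6 to 55.9). Members, lists and alternatives were chosen with earlier results of these data known. Named genes were the 10 members in every comparison, the genes most correlated with each, up to 4 called genes per list with the smallest adjusted p, and some genes acting on the particles whatever their value. Promoter sequences of 6 of the 10 members and the gene order came from RefSeq tables (GRCr8), and no coordinate was compared with Rnor_5.0. Protein sequences and transcript lengths were not used here.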

Additional observations from a re-analysis of the deposited data

Results flagged for a closer look

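In 5 of 80 gene-by-group sets of 4 livers, 1 liver stood apart from the other 3 by Dixon's criterion at 95%, where chance gives about 1 in 20. Apoa4 of replicate 4 of the 60-day WT females was 634 CPM, above a next value of 394 CPM. Apoc3 of replicate 3 of the 60-day KO males was 3459 CPM, below a next value of 4166 CPM. Apof of replicate 2 of the 30-day WT males was 80.5 CPM, below 231 CPM, and Apof of replicate 1 of the 60-day KO males was 497 CPM, above 292 CPM. Apoh of replicate 3 of the 60-day WT males was 4429.6 CPM, above 3899.5 CPM.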

How the results depend on the processing

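Among the single-gene values of the 10 members under all alternatives, 2393 kept their side of the threshold, 25 came to pass it and 42 no longer passed it. Of values called in either fit, 0 reversed direction. Changes of direction among values called in neither fit were not counted. Members called for KO against WT in 60-day males (1) came to 2 with DESeq2 and to 0 with no filter, on the authors' log2 values and in the 16-library fit. For sex by genotype at 60 days DESeq2 called 1 (0 otherwise), and for age by genotype in females DESeq2, the authors' log2 values and the clock score called 1. Without 1 library each, the members called were 0 to 1 for KO against WT in 60-day males, 3 to 6 for age in KO females, 0 to 1 for age by genotype in females, 4 to 6 for age in WT females, 6 to 7 in WT males and 5 to 7 in KO males, and 3 to 4 and 2 to 3 for sex at 60 days in WT and KO. CPM on raw totals moved 11 of the 80 group means by more than 1 SD. With the numbers after the hyphen of the 30-day titles (meaning not given) as a covariate, 0 members were called in the 30-day comparisons of genotype, as in the main fit. In females that number nearly coincides with genotype, so the fit can hardly separate them.

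Counts over all genes varied more. KO against WT called 33 genes in 30-day females, 92 with DESeq2, 18 with no filter, 15 on the authors' log2 values, 50 in the 16-library fit, 4 with the clock score and 8 with the title number. In 30-day males it called 6 (26 with DESeq2, 16 in the 16-library fit, 3 with the clock score), in 60-day females 745 (277 in the 16-library fit, 141 with the clock score) and in 60-day males 23 (61, 15, 4 and 4 with DESeq2, no filter, the authors' log2 values and the 16-library fit). For sex at 30 days the 228 of WT became 358 in the 16-library fit, and the 246 of KO became 397 with DESeq2, 401 in that fit and 110 with the title number. Sex by genotype at 60 days had 15 (89 with DESeq2, 2 in that fit), age by genotype 326 in females (585 with DESeq2) and 1 in males (18). Without 1 library the ranges were 4 to 60, 1 to 7, 399 to 978 and 2 to 46 for the 4 genotype comparisons in the order above, 119 to 209 and 124 to 225 for sex at 30 days, 5 to 126 for sex by genotype at 60 days and 191 to 595 and 0 to 2 for age by genotype.

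The authors' unscaled log2 values shifted the median of all genes with age by -0.12 and -0.16 in WT and KO females and -0.17 and -0.21 in WT and KO males. The share of called genes that were higher at 60 days went with them from 48.3%, 46.9%, 49.8% and 49.2% to 26.02%, 17.3%, 20.7% and 15.0% in the same order, and under upper-quartile scaling to 36.6% in WT females and 39.0% in WT males. It went from 39.4% to 26.1% (upper quartile) and 80% (authors' log2) for genotype in 30-day females, from 50% to 71.4% in 30-day males, from 38.2% to 48.4% for sex in 30-day KO, from 73.3% to 52.8% (DESeq2) and 52.4% (authors' log2) for sex by genotype at 60 days, and from 47.9% to 61.4% (upper quartile) for age by genotype in females. No paired analysis was possible because the replicate numbers follow the order of the samples and the labels link no animals across groups. All p-values rest on the spread between livers of the same group, with 4 livers a group. In the main test this spread was estimated for each gene jointly over all 8 groups (24 residual degrees of freedom). Its SEs and p-values are therefore not set by the livers of the compared groups alone.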
